A study of Mus musculus with 30 samples.

Results

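Genes of the enteric nervous system were followed through mouse colon RNA from 10 groups that combined a deletion of Smox, added spermidine and chemically induced colitis with tumors. A list of 32 symbols, 27 for neurons and 5 for glia, chose them. Each symbol matched 1 row of a count table with 31023 genes, and all 32 were among the 19558 genes with enough counts to be tested. Smox encodes spermine oxidase, the enzyme that turns the polyamine spermine back into spermidine. The 30 libraries came from the colon of male C57BL/6 mice, aged 8 to 12 weeks, 3 libraries a group, and counts summed to between 33060607 and 81011304 a library. Untreated wild-type (WT) and untreated Smox-/- mice made up 2 groups, and WT and Smox-/- mice with 14 mM spermidine in the drinking water for 56 days made up 2 more. Another 4 groups held non-tumor (NT) colon of WT or Smox-/- mice given azoxymethane, a carcinogen injected at 12.5 mg/kg, and then 3 cycles of 4% dextran sulfate sodium, each of 5 days and started on days 5, 26 and 47, either alone (AOM-DSS) or together with spermidine. The remaining 2 groups were tumors (T), from WT mice that had received AOM-DSS plus spermidine and from Smox-/- mice that had received AOM-DSS only, so genotype and spermidine cannot be told apart between the tumor groups. The deleted stretch of Smox, the mouse of origin of each tumor or non-tumor sample and any pooling of animals are not given in the labels.

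Enteric neurons lie in ganglia of the myenteric plexus, between the muscle layers, and of the submucosal plexus, and they drive motility, secretion and blood flow. They arise from neural crest cells that enter the gut under the control of Ret, the receptor for the glial cell line-derived neurotrophic factor family, and of the endothelin receptor Ednrb. Excitatory motor neurons use acetylcholine and tachykinins, and inhibitory motor neurons use nitric oxide and vasoactive intestinal peptide. Enteric glia surround the neurons, extend into the mucosa and are recognised by Sox10, S100b and Gfap. In RNA from whole tissue, fewer cells of a type and less RNA per cell cannot be told apart, which holds for every value here.

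The colon identity of the libraries was checked on lists of marker genes before the neural genes were read. The 10 epithelial markers summed to between 11764 and 26935 CPM (read counts scaled to library size by the TMM method of edgeR), and none of the 30 libraries lacked them. WT untreated replicate 3 stood apart, because its 12 skeletal muscle genes summed to 10383 CPM against 30.9 and 38.4 CPM in the other 2 WT untreated libraries, and its 5 distal hindgut position genes to 6.35 CPM against 661 and 721 CPM. Acta1 reached 1310 CPM and Ckm 1567 CPM there, both genes of skeletal muscle fibres. Smox-/- spermidine replicate 1 also held skeletal muscle transcripts (1754 CPM), and Smox-/- tumor replicate 3 kept more smooth muscle than the other tumors. Smox RNA ran from 25.1 to 169 CPM in the 15 WT libraries and from 18.6 to 68.7 CPM in the 15 Smox-/- libraries, so its level alone does not separate the genotypes as labelled.

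RefSeq promoter windows on GRCm38.p6, from 250 bases before to 50 bases after the transcription start, were available for 22 of the 32 genes, in 30 windows. They are printed for 3 transmitter or filament genes that were low in WT tumors and in Smox-/- tumor replicates 1 and 2 (Cartpt, Vip and Prph) and for a glutamate receptor gene (Gria2), each 5′ to 3′ on the gene's strand, with every match to a motif in capitals.
Cartpt, chr13:99900634-99900933, minus strand, cAMP response element in capitals: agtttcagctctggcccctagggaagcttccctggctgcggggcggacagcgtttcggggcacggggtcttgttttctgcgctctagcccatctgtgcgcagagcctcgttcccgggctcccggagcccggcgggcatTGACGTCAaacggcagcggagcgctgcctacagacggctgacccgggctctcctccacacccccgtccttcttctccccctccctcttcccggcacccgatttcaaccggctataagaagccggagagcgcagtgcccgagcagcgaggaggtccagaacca
Vip, chr10:5638968-5639267, plus strand, TATAAA in capitals: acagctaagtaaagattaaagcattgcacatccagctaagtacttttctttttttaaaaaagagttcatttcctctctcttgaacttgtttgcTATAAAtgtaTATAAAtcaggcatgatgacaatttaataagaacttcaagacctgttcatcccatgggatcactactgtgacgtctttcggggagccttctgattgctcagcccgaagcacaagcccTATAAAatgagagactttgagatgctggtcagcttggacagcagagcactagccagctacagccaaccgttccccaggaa
Prph, chr15:99054924-99055223, plus strand, TATAAA in capitals: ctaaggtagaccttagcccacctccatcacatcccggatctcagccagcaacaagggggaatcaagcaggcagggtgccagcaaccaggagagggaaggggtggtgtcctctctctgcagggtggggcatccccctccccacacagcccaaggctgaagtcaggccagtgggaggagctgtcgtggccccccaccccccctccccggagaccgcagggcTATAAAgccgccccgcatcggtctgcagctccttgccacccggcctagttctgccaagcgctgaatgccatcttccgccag
Gria2, chr3:80802786-80803085, minus strand, right end of the RE1 element (read on the opposite strand) in capitals: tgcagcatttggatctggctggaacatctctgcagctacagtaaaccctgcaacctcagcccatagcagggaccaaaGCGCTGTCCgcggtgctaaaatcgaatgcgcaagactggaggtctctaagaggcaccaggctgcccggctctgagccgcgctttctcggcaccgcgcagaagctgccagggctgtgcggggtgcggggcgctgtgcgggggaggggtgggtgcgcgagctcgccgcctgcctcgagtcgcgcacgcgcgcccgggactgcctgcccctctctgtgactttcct

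Motifs were searched as exact letters on both strands. The palindromic cAMP response element TGACGTCA, which CREB binds, began 112 bases before the start of Cartpt and was in 1.79% of all 32851 windows of that length. Of RE1, the element bound by the neuronal gene repressor REST, the right end GGACAGCGC was found 173 bases before the start of Gria2 (0.405% of all windows) and the left end TTCAGCACC in none of the 22 genes (0.371% of all windows). TATAAA lay 33 bases before the start of Elavl3, 31 before that of Prph and 157, 147 and 30 before that of Vip, against 13.6% of all windows. ATTGTT, the core of SOX factor sites, was in Elavl4 and Kcnc2 and in 10.7% of all windows. A match describes letters in a window and shows neither binding nor a cause of the expression values below.

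Levels of the neural genes were low in whole colon RNA and differed widely between libraries. WT untreated replicate 3 held the highest value of the whole series for 30 of the 32 genes, the exceptions being L1cam and Gfra3. The lowest value lay in WT tumor replicate 1 for 13 genes, in replicate 2 for 5 and in replicate 3 for 4, with a tie at 0 counted once. Compared per kilobase of exon in untreated WT colon, the highest mean levels were 30.1 CPM per kb for Uchl1, a ubiquitin hydrolase abundant in neurons, 25.7 for Prph, the filament peripherin, and 20.6 for Calb2, the calcium buffer calretinin. The lowest were 0.289 CPM per kb for Chat, the enzyme that makes acetylcholine, and 0.215 for Gria2, an AMPA receptor subunit. Summed over the 27 neuron genes, libraries ran from 78.9 to 1201 CPM with a median of 244, and over the 5 glia genes from 3.86 to 133 CPM with a median of 10.4. Neuron and glia genes moved through the series in a similar order of groups, as the plot of their mean levels shows.

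**Figure D1:**
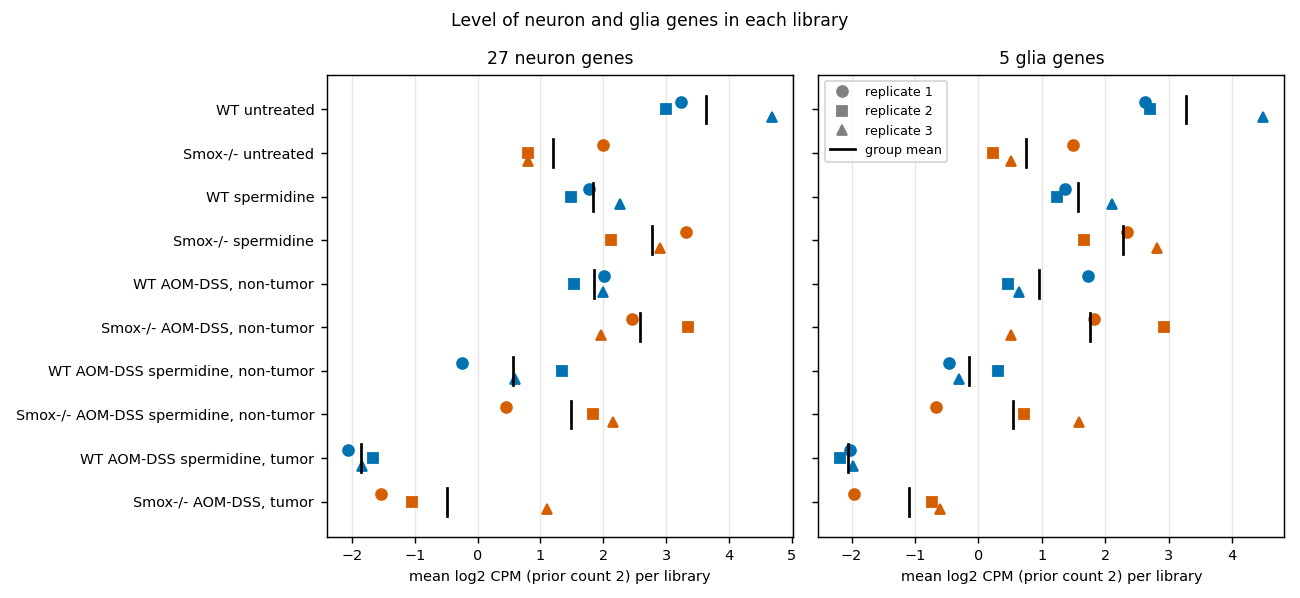
Mean log2 CPM (x axis, prior count 2) of the 27 neuron genes (left) and the 5 glia genes (right) in each of 30 libraries, with 1 row per group, circles, squares and triangles for replicates 1, 2 and 3 and a black bar for the group mean. WT untreated replicate 3 is highest in both panels (4.68 and 4.49), and the 3 WT tumor libraries lie between -2.06 and -1.66 for neuron genes.

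**Figure D2:**
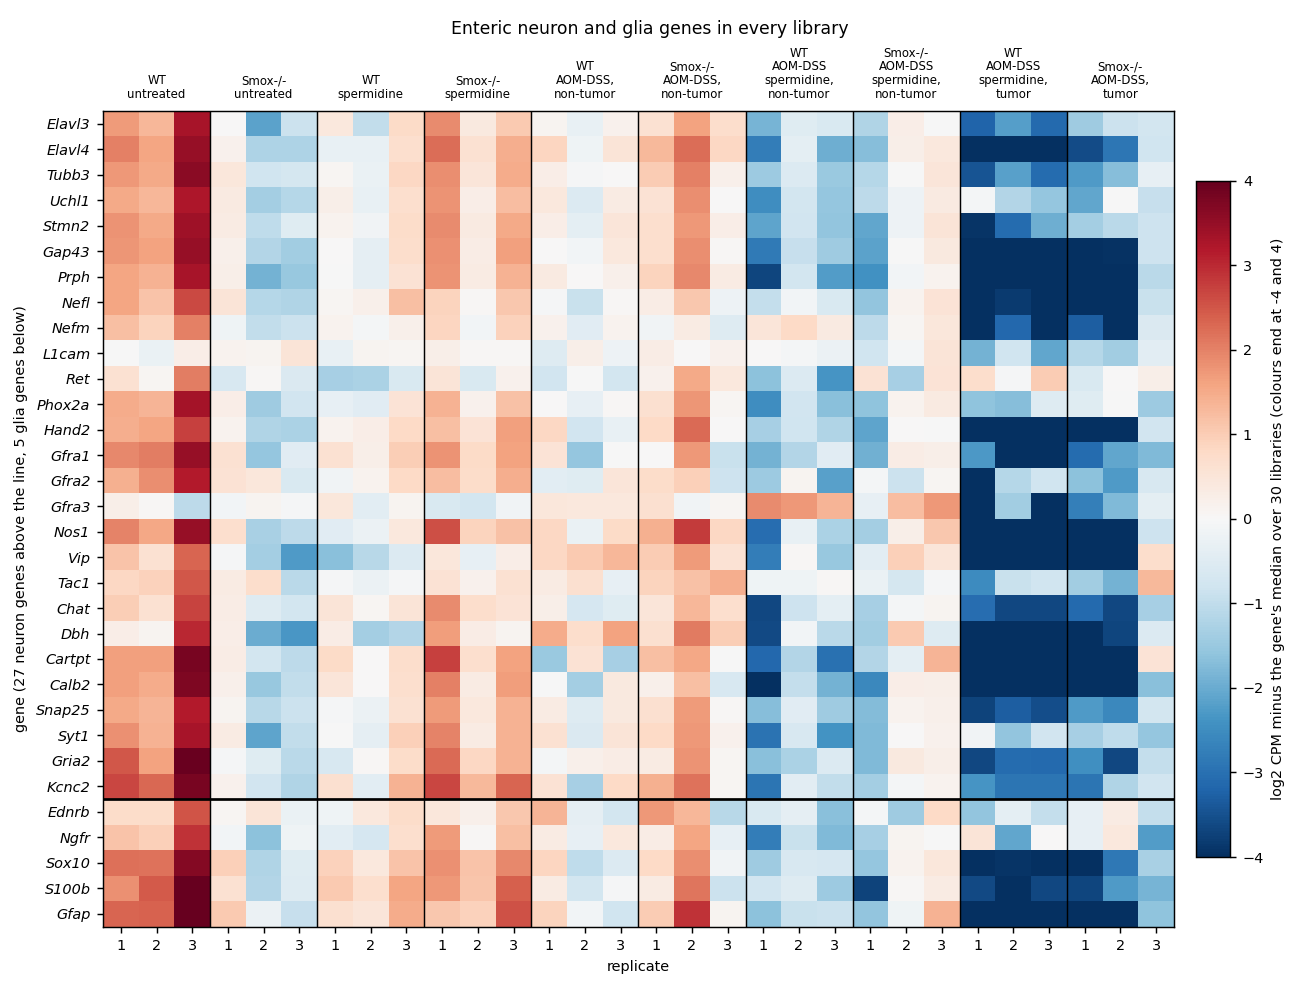
Each of the 32 genes (rows, neuron genes above the line) in each of 30 libraries (columns, by group), coloured by log2 CPM minus the gene's median over all libraries. WT untreated replicate 3 is the highest library in 30 of the 32 rows, and Smox-/- tumor replicate 3 is nearer to the median than replicates 1 and 2 in most neuron rows.

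The question of the tumor comparison is how neural transcripts in tumors stand against non-tumor colon of the same genotype and treatment. In WT mice given AOM-DSS with spermidine, 22 of the 32 genes were lower in tumors (19 of 27 neuron and 3 of 5 glia genes) and 1, Ret, was higher, at an edgeR adjusted p under 0.05. Over all genes tested, 17.5% were lower and 16.9% higher in this comparison. The median log2 fold change was -3.47 over the 32 genes, or -3.38 with Cartpt at its bound, and 0.01 over all genes tested. Vip, Cartpt, Chat, Calb2 and Dbh had 0 to 3 counts in the 3 tumors together, and so had Gria2, Kcnc2 and the glial genes Gfap and S100b. Ret, Uchl1, Stmn2, Syt1, Phox2a, Tac1, Kcnc2, Ednrb, Ngfr and Gfra2 were not among the genes called lower. The fitted change was positive for 5 of the 32 genes and negative for 27.

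Among the pan-neuronal proteins and the axon cytoskeleton, Elavl4, a neuronal RNA-binding protein, was at 0.31, 1.74 and 0.572 CPM in WT non-tumor colon and at 0.0822, 0.0491 and 0.107 CPM in WT tumors. The groups did not overlap, and the tumors were 10.8-fold lower (log2 fold change -3.43 ± 0.88 (SE), edgeR adjusted p = 0.00527). Elavl3, its close relative, was at 0.343, 0.938 and 0.857 CPM against 0.115, 0.262 and 0.123 CPM, a 4.23-fold fall (edgeR adjusted p = 0.0191). Tubb3, the neuronal beta-tubulin, was at 2.04, 3.86 and 2.03 CPM against 0.493, 1.24 and 0.645 CPM, a 3.34-fold fall (edgeR adjusted p = 0.0386). Each of these 3 genes was lower in every tumor library than in every non-tumor library. Gap43, a growth cone protein, went from 0.343, 1.36 and 0.952 CPM to 0.0658, 0.115 and 0.0767 CPM and was 10.1-fold lower (edgeR adjusted p = 0.0132). L1cam, an adhesion molecule of axons that epithelial and immune cells can also express, had the highest level per kilobase of the 32 genes in WT tumors (6.06 CPM per kb) and fell less, from 125, 117 and 106 CPM to 33.6, 70.8 and 29.2 CPM (2.60-fold lower, edgeR adjusted p = 0.00237).

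Filament genes fell further. Prph was at 0.751, 5.94 and 2.1 CPM in WT non-tumor colon and at 0.0986, 0.0164 and 0.169 CPM in tumors, 30.2-fold lower (edgeR adjusted p = 0.00491). Nefl, the light neurofilament, went from 2.12, 3.88 and 2.7 CPM to 0, 0.262 and 0.0307 CPM (29.3-fold lower, edgeR adjusted p = 0.00234). Nefm, the medium neurofilament, went from 4.28, 5.35 and 3.9 CPM to 0.0822, 0.311 and 0.107 CPM (26.8-fold lower, edgeR adjusted p = 3.02e-04). The exons of Nefl and Nefm overlap on opposite strands, and whether the counting used the strand is not given in the sources used here. The same limit holds for Hand2, Uchl1, Phox2a, Nos1 and Gfra1, whose exons overlap a gene on the opposite strand, while Elavl3, L1cam and Gria2 overlap one on their own strand. In the same role, Uchl1 was at 1.76, 5.97 and 3.37 CPM in non-tumor colon and 9.55, 4.37 and 3.41 CPM in tumors, and Stmn2, a microtubule regulator, at 1.52, 3.86 and 2.22 against 0.411, 0.752 and 1.7 CPM. Neither of them passed the test (edgeR adjusted p = 0.468 and 0.0908).

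Of the transcription factors and receptors, Ret was the only one called higher. Its level was 5, 10.9 and 3.08 CPM in WT non-tumor colon and 25.9, 15.3 and 32.2 CPM in WT tumors, with no overlap, and it was 3.85-fold higher (log2 fold change 1.94 ± 0.55 (SE), edgeR adjusted p = 0.0104). Gfra1, the co-receptor through which GDNF binds Ret, was at 0.833, 1.39 and 2.35 CPM against 0.625, 0.147 and 0.046 CPM and 5.54-fold lower (edgeR adjusted p = 0.0288). Gfra3, the co-receptor for artemin, went from 4.1, 3.66 and 2.83 CPM to 0.0329, 0.393 and 0 CPM (24.7-fold lower, edgeR adjusted p = 7.80e-04). So the receptor and 2 of its co-receptors moved in opposite directions in the same tumors. Gfra2, which binds neurturin, was at 0.751, 2.31 and 0.445 CPM against 0.0986, 0.949 and 1.21 CPM and did not pass the test (edgeR adjusted p = 0.497). Hand2, a transcription factor that neural crest progenitors need to become neurons and that gut mesenchyme also expresses, fell from 2.91, 4.24 and 3.14 CPM to 0.0329, 0.0164 and 0.107 CPM (62.3-fold, edgeR adjusted p = 9.81e-04). Phox2a, a homeobox factor of autonomic neurons, was at 0.131, 0.5 and 0.254 CPM against 0.263, 0.245 and 0.599 CPM, and the groups overlapped (edgeR adjusted p = 0.754).

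Several transmitter genes were nearly absent, though not Tac1. Nos1, the neuronal nitric oxide synthase, went from 0.866, 6.07 and 3.05 CPM to 0.0658, 0.0982 and 0.123 CPM and was 34.0-fold lower (log2 fold change -5.09 ± 1.18 (SE), edgeR adjusted p = 0.00279). Vip, vasoactive intestinal peptide, was at 1.27, 9.09 and 3.11 CPM in non-tumor colon and at 0, 0.0491 and 0 CPM in tumors. That is 3 counts in the 3 tumor libraries against 757, a ratio of 301 (95% exact interval from counting error alone 103 to 1465, edgeR adjusted p = 0.00246). Calb2 had 1 count in the tumors against 243, a ratio of 290 (51.6 to 11510, edgeR adjusted p = 0.00338), with 0.229, 2.86 and 1.46 CPM in non-tumor colon. Cartpt, a peptide of enteric neurons, had no counts in any WT tumor and was at 0.0817, 0.422 and 0.0952 CPM in non-tumor colon, at least 4.15-fold lower when 3 counts per library are taken as the floor (edgeR adjusted p = 0.0235). Dbh, the enzyme that makes noradrenaline, had 2 counts against 59 (ratio 35.2, interval 9.33 to 298), and Chat 1 count against 22 (ratio 26.3, interval 4.25 to 1084). Chat was already at 0 in 1 of the 3 non-tumor libraries, and its groups overlapped at 0. Tac1, which encodes substance P and is also made by enteroendocrine cells, stayed measurable at 2.58, 8.16 and 8.64 CPM in tumors against 13.4, 13.5 and 15.6 CPM, and its 2.19-fold difference did not pass the test (edgeR adjusted p = 0.157).

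The synaptic and channel genes split. Snap25, a SNARE protein of vesicle release, was at 2.14, 5.13 and 2.6 CPM in WT non-tumor colon and 0.51, 0.687 and 0.568 CPM in tumors, 5.59-fold lower (edgeR adjusted p = 0.00531). Gria2 had 2 counts in the tumors against 23 in non-tumor colon (ratio 13.7, interval 3.39 to 120), and Kcnc2, a potassium channel, 1 against 13 (ratio 15.5, interval 2.33 to 660). Gria2 passed the test (edgeR adjusted p = 0.0156) and Kcnc2 did not (0.0551). Syt1, the calcium sensor of vesicle release, was at 0.572, 2.96 and 0.857 CPM against 4.18, 1.52 and 2.72 CPM and overlapped (edgeR adjusted p = 0.314). Enteroendocrine cells also carry vesicle release proteins of this kind, and of 15 enteroendocrine genes 12 fell and 1 rose in the same tumors. Which cells held the remaining Syt1 or Tac1 RNA was not tested.

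Glial genes split in the same way. Sox10, the transcription factor of glia and their precursors, fell from 0.441, 0.766 and 0.762 CPM to 0.0164, 0.0491 and 0.046 CPM (16.7-fold, log2 fold change -4.06 ± 0.95 (SE), edgeR adjusted p = 0.00303). S100b, a calcium-binding protein of glia, had 2 counts in tumors against 51 (ratio 30.5, interval 8.01 to 258). Gfap, the glial filament, had 3 against 176 (ratio 70.1, interval 23.6 to 343), from 0.784, 1.33 and 1.37 CPM. Both S100b and Gfap passed the test (edgeR adjusted p = 0.00706 and 0.00241). Ednrb was at 2.45, 2.92 and 1.17 CPM against 1.23, 2.86 and 1.92 CPM, and Ngfr, the low-affinity neurotrophin receptor, at 0.555, 2.13 and 1.14 CPM against 5.66, 0.916 and 4.02 CPM. Neither passed (edgeR adjusted p = 0.903 and 0.134), and both receptors are also made outside glia.

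**Figure D3:**
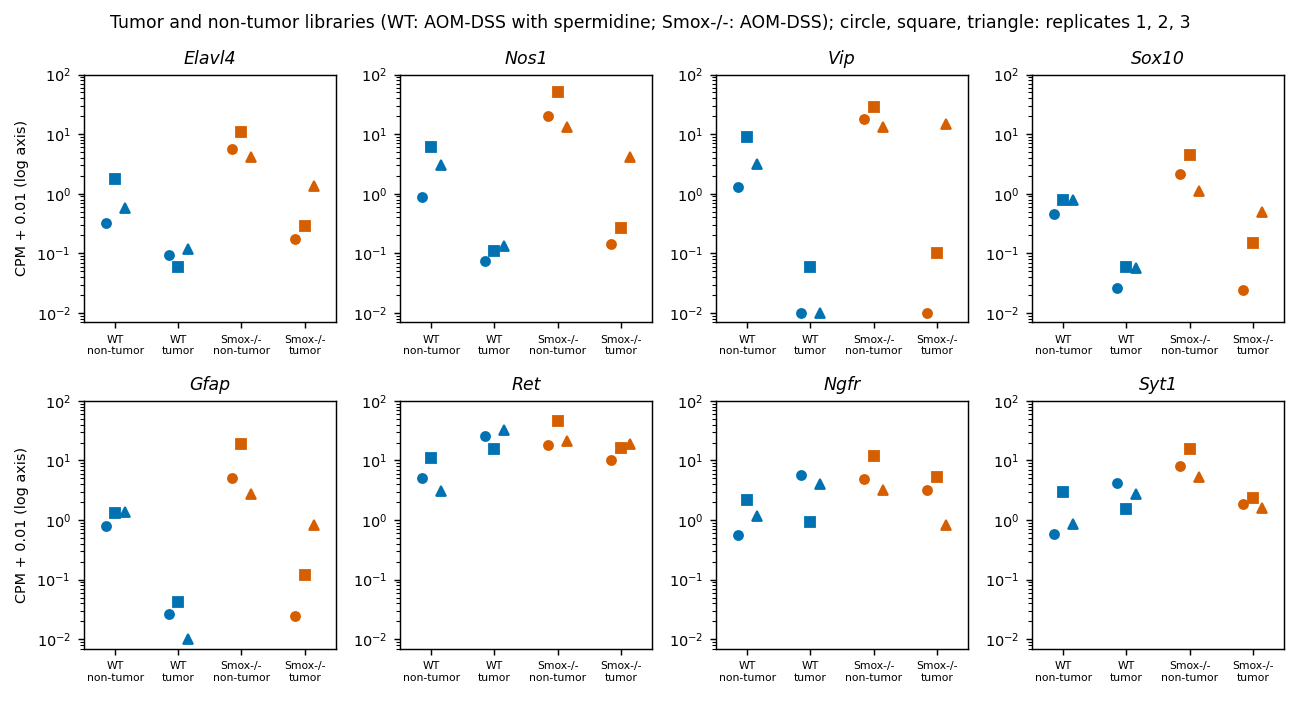
CPM plus 0.01 on a log axis for 8 genes in the 12 tumor and matching non-tumor libraries, with WT in blue and Smox-/- in orange. Elavl4, Nos1, Vip, Sox10 and Gfap are low in WT tumors and in Smox-/- tumor replicates 1 and 2, while Ret, Ngfr and Syt1 in WT tumors are not.

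Markers of other cells moved in the same tumors. Of 13 smooth muscle genes 12 fell, and their sum was 1505 to 1898 CPM in WT non-tumor colon and 152 to 309 CPM in tumors, with none at 0 counts. Myh11, smooth muscle myosin, was at 348, 247 and 228 CPM against 4.36, 9.93 and 3.55 CPM. Of 15 enteroendocrine genes 12 fell and 1 rose, from sums of 413 to 670 CPM to 19.8 to 81.5 CPM, with up to 3 of them at 0 counts in a tumor. With the smooth muscle level of each library as a covariate, 0 of the 32 genes and 0 of all 19558 genes were called in this comparison, and the median of the 32 genes was -1.58. Smooth muscle means did not overlap between these groups (6.07 to 6.41 log2 CPM in non-tumor colon, 1.55 to 3.18 in tumors). That fit therefore cannot separate muscle content from tumor status. The part of muscle and enteroendocrine content in the neural result was not tested. Leaving out any of the 6 libraries left 16 to 23 of the 32 genes called, and 4404 to 6242 over all genes.

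In Smox-/- mice given AOM-DSS alone, all 32 genes had a negative tumor minus non-tumor log2 fold change, and 23 were lower (20 of 27 neuron and 3 of 5 glia genes, edgeR adjusted p under 0.05) against 13.2% of all genes tested. The median was -2.53 over the 32 genes and -0.01 over all genes tested. Gfap, Nos1, S100b and Chat had the largest falls that passed. The 3 tumors were not alike. Replicates 1 and 2 were close to the WT tumors for genes such as Vip, Cartpt, Calb2 and Chat. They lay above all WT tumors for Elavl3, Elavl4, Stmn2, Hand2, Nos1 and Snap25. Replicate 3 was the highest tumor for many neuronal genes, but the lowest for Syt1 and Phox2a.

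Elavl4 was at 5.67, 11 and 4.12 CPM in Smox-/- non-tumor colon and 0.161, 0.277 and 1.32 CPM in tumors, 11.8-fold lower (log2 fold change -3.56 ± 0.81 (SE), edgeR adjusted p = 0.00704). Nos1 was at 20.2, 51.4 and 13.2 CPM against 0.132, 0.262 and 4.21 CPM, 18.5-fold lower (edgeR adjusted p = 0.00902). Prph was at 18.7, 37.9 and 12.7 CPM against 0.0587, 0.308 and 4.69 CPM, 13.7-fold lower (edgeR adjusted p = 0.0167). In each of these the tumors lay below all non-tumor libraries, with replicate 3 the highest tumor by several fold. Vip was at 18, 28.7 and 13.4 CPM in non-tumor colon and at 0, 0.0924 and 14.5 CPM in tumors, so replicate 3 reached the non-tumor range and the difference did not pass (edgeR adjusted p = 0.199). Tac1 showed the same with 28, 34.1 and 41.3 CPM against 5.72, 4.08 and 37 CPM (edgeR adjusted p = 0.164). Cartpt was at 2.31, 2.92 and 0.97 CPM against 0, 0.0308 and 1.45 CPM, which also overlapped (edgeR adjusted p = 0.192).

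The other pan-neuronal genes that fell in Smox-/- tumors did so by 3.51- to 10.1-fold apart from L1cam. Tubb3 went from 11.5, 23.3 and 6.53 CPM to 1.17, 1.74 and 4.58 CPM, Elavl3 from 2.04, 4.13 and 2.18 to 0.469, 0.708 and 0.785 CPM, and Gap43 from 4.23, 9.59 and 2.72 to 0.044, 0.139 and 1.45 CPM. Stmn2 went from 10.6, 22.3 and 7.91 CPM to 2.55, 3.14 and 3.72 CPM and Uchl1 from 14.9, 36.4 and 10.1 to 2.33, 9.85 and 5.29 CPM. Both of the latter passed the test here (edgeR adjusted p = 0.0214 and 0.0487), which they did not in WT mice, but the difference between the genotypes in this respect was not tested. Nefl was at 5.17, 8.81 and 3.64 CPM against 0.0587, 0.215 and 2.2 CPM, and Nefm at 2.74, 3.78 and 2.11 CPM against 0.279, 0.123 and 2.02 CPM. Nefl and Nefm fell (edgeR adjusted p = 0.0352 and 0.0458), with replicate 3 close to the non-tumor range. L1cam went from 152, 126 and 140 CPM to 56.3, 46.7 and 91.9 CPM (2.14-fold lower, edgeR adjusted p = 0.0166).

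Among receptors and factors, Ret was at 17.8, 45.5 and 21 CPM in Smox-/- non-tumor colon and at 10.4, 15.9 and 18.8 CPM in tumors and did not pass (edgeR adjusted p = 0.213). Gfra1 fell from 3.28, 10.8 and 1.7 CPM to 0.352, 0.739 and 0.918 CPM (7.83-fold, edgeR adjusted p = 0.0168), and Hand2 from 12.8, 35.4 and 7.48 to 0.147, 0.139 and 4.32 CPM (12.1-fold, edgeR adjusted p = 0.0128). Phox2a, Gfra2 and Gfra3 were lower by 3.03-, 3.71- and 3.05-fold and did not pass (edgeR adjusted p = 0.0777, 0.0546 and 0.125). Their values in tumors were 0.616, 0.862 and 0.301 CPM for Phox2a, 0.66, 0.416 and 1.34 CPM for Gfra2 and 0.132, 0.292 and 0.818 CPM for Gfra3. Gfra1 thus fell in the tumors of both genotypes, and whether the response of Ret differed between them was not tested. Chat was at 0.544, 1.02 and 0.625 CPM against 0.0147, 0 and 0.134 CPM (edgeR adjusted p = 0.0124), Dbh at 1.24, 3.39 and 1.57 CPM against 0, 0.0308 and 0.518 CPM (0.0405) and Calb2 at 6.39, 12.8 and 3.54 CPM against 0.0293, 0 and 1.72 CPM (0.0286). All 3 transmitter markers fell, with replicate 3 again the highest tumor.

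Each of the 4 synaptic and channel genes fell in Smox-/- tumors. Snap25 went from 11.1, 22.9 and 7.22 CPM to 1.44, 1.14 and 4.21 CPM (6.07-fold lower, edgeR adjusted p = 0.00830), and Syt1 from 8.05, 15.5 and 5.22 CPM to 1.82, 2.29 and 1.57 CPM (5.05-fold lower, 0.0236). Gria2 went from 0.493, 1.45 and 0.41 CPM to 0.044, 0 and 0.184 CPM, and Kcnc2 from 0.663, 1.12 and 0.237 to 0, 0.077 and 0.117 CPM. For glia, Sox10 fell from 2.17, 4.51 and 1.12 CPM to 0.0147, 0.139 and 0.484 CPM (12.3-fold, edgeR adjusted p = 0.00771). S100b fell from 0.731, 2.66 and 0.302 CPM to 0.0147, 0.0924 and 0.134 CPM (15.2-fold, edgeR adjusted p = 0.0109) and Gfap from 5.17, 18.7 and 2.72 to 0.0147, 0.108 and 0.801 CPM (28.9-fold, edgeR adjusted p = 0.00657). The 3 glial genes followed the neuronal ones, with no overlap between tumor and non-tumor libraries. Ednrb was at 12.7, 9.47 and 1.72 CPM against 3.04, 4.76 and 1.94 CPM and Ngfr at 4.91, 11.9 and 3.13 CPM against 3.15, 5.31 and 0.818 CPM, and neither passed (edgeR adjusted p = 0.155 and 0.272).

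Position markers differed between the groups as well. The 5 distal hindgut position genes summed to 222, 235 and 326 CPM in the Smox-/- non-tumor libraries and to 489, 474 and 563 CPM in the tumors, none at 0 counts, with 3 of 5 higher and a median log2 fold change of 5.59, and their part in the neural result was not tested. Of the 7 squamous genes 4 were higher in tumors, with a median of 6.20. Smox-/- tumor replicate 3 also differed from the other 2 tumors in markers of other cells. Its 13 smooth muscle genes summed to 1473 CPM against 266 and 308 CPM, its 15 enteroendocrine genes to 218 CPM against 50.2 and 71.3 CPM and its 7 squamous genes to 52.9 CPM against 406 and 493 CPM, and the non-tumor libraries held 1248 to 5716 CPM of smooth muscle genes. All 13 smooth muscle genes were lower in this comparison, with a median of -2.14 and 3 called, and none was at 0 counts in a tumor. Without replicate 3 the median of the 32 genes was -3.93 and 26 were called. Without tumor replicate 1 or 2 the number called was 3 or 2, and without non-tumor replicate 2 it was 7. Over all genes 4820 were called with every library and 6117 without tumor replicate 3. They numbered 990 and 1038 without tumor replicates 1 and 2, and 2376 without non-tumor replicate 2. With the smooth muscle covariate none of the 32 genes was called, against 35 over all genes, and the median was -1.56. The part of muscle content in the result was otherwise not tested.

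**Figure D4:**
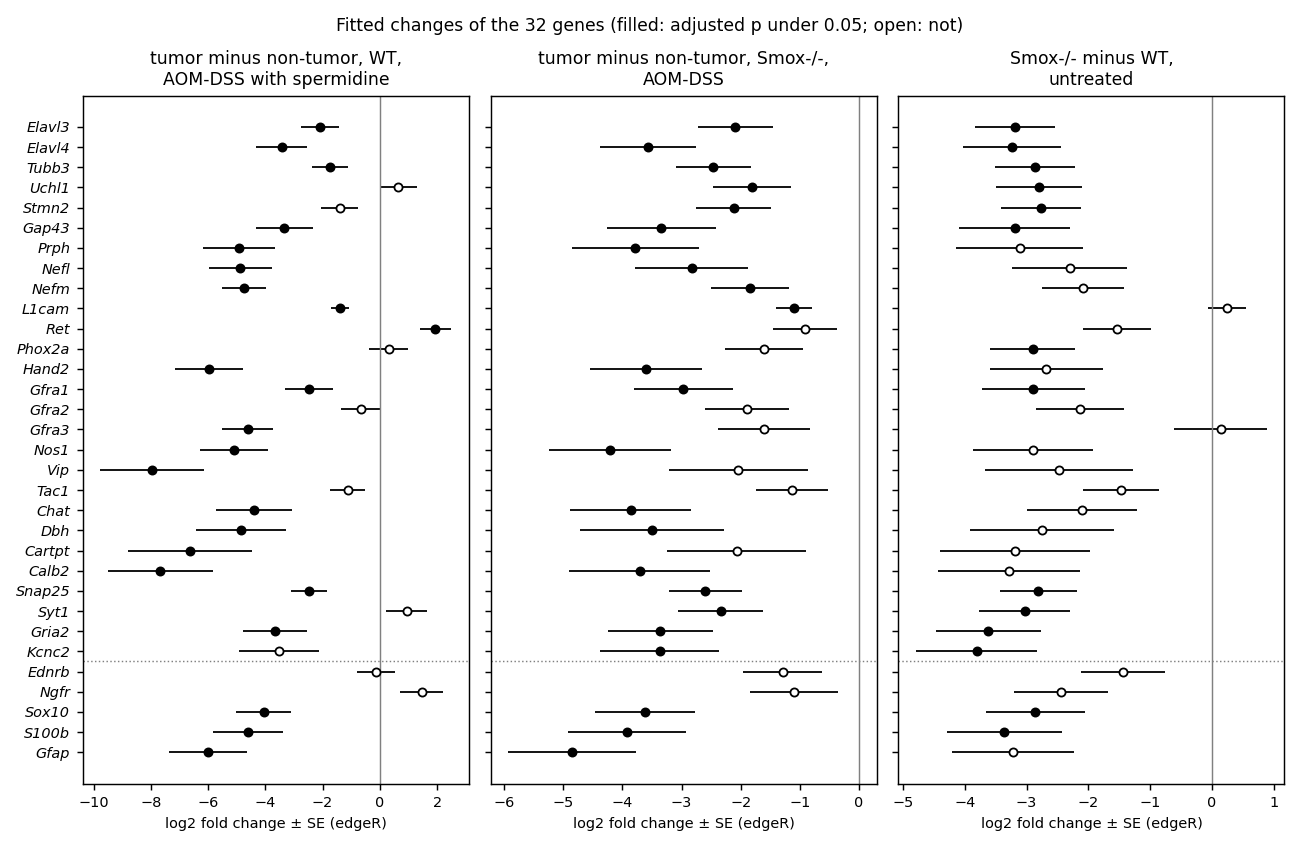
Fitted log2 fold change with its standard error for each of the 32 genes in the WT tumor, Smox-/- tumor and untreated genotype comparisons, filled where the adjusted p was under 0.05 (fits use 3 libraries a group). Ret is the only filled point above 0, at 1.94 in WT tumors, and the 23 filled points of the Smox-/- tumors all lie below 0.

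Set directly against each other, Smox-/- tumors after AOM-DSS had higher values than WT tumors after AOM-DSS with spermidine for 29 of the 32 genes, with a median log2 difference of 2.34. None of the 32 was called by edgeR, where 0.0614% of all genes were called, although 20 were below 0.05 before adjustment (5.61% of all genes) and DESeq2 called 6 (0.76% of all genes), namely Calb2, Cartpt, Hand2, Nos1, Prph and Vip. All 3 Smox-/- tumors were above all 3 WT tumors for Elavl3, Elavl4, Stmn2, Hand2, Nos1 and Snap25, 6 of 32 genes against 4.7% of all genes. Without Smox-/- tumor replicate 3 the median was 0.95, and without replicate 1 or 2 of the Smox-/- tumors Vip was called, with 15 or 12 called over all genes. These are the same libraries that served as tumor groups in the comparisons above. All 13 smooth muscle genes were also higher in the Smox-/- tumors, with a median of 2.56, and so were 13 of 15 enteroendocrine genes, with a median of 1.44, with 0 of either list called. Smooth muscle genes summed to 266 to 1473 CPM against 152 to 309 CPM, and enteroendocrine genes to 50.2 to 218 CPM against 19.8 to 81.5 CPM. With the smooth muscle covariate the neural median was 1.11.

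In untreated colon the neural genes were lower in Smox-/- than in WT mice. At an edgeR adjusted p under 0.05, 14 of the 32 were lower (12 of 27 neuron and 2 of 5 glia genes) and none higher, against 3.32% of all genes that were lower. The median log2 fold change was -2.83, with -0.01 over all genes tested. In 29 of the 32 genes every Smox-/- library lay below every WT library, against 14.9% of all genes. L1cam, Gfra3 and Dbh were the 3 genes that overlapped. The called genes were 6 pan-neuronal ones (Elavl3, Elavl4, Tubb3, Uchl1, Stmn2 and Gap43), Phox2a and Gfra1, all 4 synaptic and channel genes, and Sox10 and S100b of glia, while no transmitter gene was called.

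WT untreated replicate 3 added to this difference, whose median log2 fold change was -2.83 with it and -1.94 without it. Elavl4 was at 9.4, 6.95 and 26.2 CPM in untreated WT mice, against 2.6, 0.953 and 0.953 CPM in untreated Smox-/- colon (9.47-fold lower, log2 fold change -3.24 ± 0.79 (SE), edgeR adjusted p = 0.0242). Tubb3 was at 19.1, 16.4 and 70.5 CPM against 7.83, 3.25 and 3.49 CPM, and Uchl1 at 28.9, 25.2 and 93.5 CPM against 12.8, 3.85 and 4.54 CPM. Elavl3 was at 4.33, 3.36 and 13.4 CPM against 1.33, 0.272 and 0.708 CPM, Stmn2 at 23, 19.1 and 69.4 CPM against 8.4, 3.23 and 4.74 CPM, and Gap43 at 9.09, 8 and 29.8 CPM against 3.01, 1.14 and 0.978 CPM. In all of them replicate 3 was the highest WT library and replicate 1 the highest Smox-/- library. Phox2a was at 2.53, 2.32 and 9.06 CPM against 1.05, 0.306 and 0.502 CPM (7.48-fold lower, edgeR adjusted p = 0.0238), and Gfra1 at 12.2, 13.3 and 36 CPM against 4.9, 1.07 and 2.33 CPM (7.41-fold lower, 0.0423).

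Synaptic genes showed the same order. Snap25 was at 20.3, 18.1 and 64.3 CPM in untreated WT mice, against 7.57, 3.25 and 3.85 CPM in untreated Smox-/- colon (log2 fold change -2.81 ± 0.62 (SE), edgeR adjusted p = 0.0215). Syt1 was at 16.5, 12.2 and 46 CPM against 5.81, 1.06 and 2.32 CPM, Gria2 at 2.31, 1.26 and 6.46 CPM against 0.377, 0.272 and 0.167 CPM, and Kcnc2 at 1.6, 1.23 and 3.5 CPM against 0.258, 0.119 and 0.0772 CPM. Kcnc2 had the largest fall of the 32 genes, 14.0-fold (edgeR adjusted p = 0.0298). In glia, Sox10 was at 5.71, 5.6 and 16 CPM against 2.38, 0.511 and 0.875 CPM (edgeR adjusted p = 0.0385), S100b at 2.15, 3.31 and 10.2 CPM against 0.892, 0.238 and 0.399 CPM (0.0378), and Gfap at 12.7, 13.1 and 55.4 CPM against 5.27, 2.13 and 1.31 CPM (0.0527). Ngfr was at 8.86, 7.71 and 29.4 CPM against 3.69, 1.26 and 3.48 CPM, and Ednrb at 6.27, 6.31 and 21.7 CPM against 4, 5.41 and 3.17 CPM. Gfap, Ngfr and Ednrb did not pass the test.

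Transmitter genes had the same direction without passing. Nos1 was at 29.9, 21.9 and 84.3 CPM in untreated WT against 11.8, 3.01 and 3.6 CPM in untreated Smox-/- colon (edgeR adjusted p = 0.0712), and Vip at 19.7, 13.6 and 44.4 CPM against 8.68, 3.46 and 1.83 CPM (0.206). Tac1 was at 26.5, 28.7 and 84.1 CPM against 19.1, 24.3 and 7.05 CPM, Chat at 0.791, 0.596 and 2.69 CPM against 0.476, 0.255 and 0.219 CPM, and Calb2 at 17.4, 15.5 and 74.7 CPM against 6.38, 1.91 and 2.77 CPM. Prph, a filament gene, behaved likewise at 29.9, 26 and 98.3 CPM against 11.8, 2.69 and 3.48 CPM (edgeR adjusted p = 0.0688), and Ret was at 24.1, 16.8 and 65.9 CPM against 10.1, 16.3 and 10.5 CPM (0.0871). In these 7 genes the lowest WT library was above the highest Smox-/- library.

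The call depended on single libraries. Without WT untreated replicate 3, the library with skeletal muscle transcripts, 0 of the 32 genes were called and the median was -1.94, with 31 of 32 still negative. Over all genes the calls fell there from 1164 to 17. Without Smox-/- untreated replicate 2 or 3, 0 of the 32 were called too, and 6 over all genes in either case. Smooth muscle genes summed to between 6805 and 10347 CPM in untreated WT and 1673 to 4608 CPM in untreated Smox-/- libraries, with a median log2 fold change of -1.69 over 13 genes and 0 of them called. With the smooth muscle covariate 0 of the 32 genes and 15 of all 19558 genes were called, and the median of the 32 was -2.07. The 12 skeletal muscle genes, none called, had a median of -4.70, and the 7 squamous genes, which summed to 2177 CPM in 1 Smox-/- library, a median of 6.60 with 2 higher. Smooth muscle means did not overlap between the genotypes (6.15 to 7.58 log2 CPM in Smox-/-, 8.07 to 8.77 in WT). The covariate therefore cannot separate muscle content from genotype. The part of these tissues in the neural result was not tested.

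Spermidine alone was read against untreated mice of the same genotype. In WT mice 0 of the 32 genes were called by edgeR, where 0.00511% of all genes were called, although DESeq2 called 11 (4.64% of all genes) and 25 had an unadjusted p under 0.05 (16.1% of all genes). The median log2 fold change was -2.14. In 27 of 32 genes every spermidine library lay below every untreated library, against 14.2% of all genes. Elavl4 was at 1.86, 1.86 and 3.64 CPM, Nos1 at 5.41, 6.33 and 9.89 CPM, Vip at 2.79, 4.06 and 6.03 CPM and Gfap at 3.9, 3.5 and 7.14 CPM in WT colon with spermidine, each below the untreated WT values given above. Ret was at 6.29, 6.62 and 10.4 CPM with spermidine and had the lowest adjusted p of the 32 genes (log2 fold change -2.20 ± 0.56 (SE), edgeR adjusted p = 0.109). Without WT untreated replicate 3 the median was -1.25 and the count called stayed at 0, with 7 called over all genes. All 13 smooth muscle genes (sums of 2808 to 5193 against 6805 to 10347 CPM, median -1.06) and all 12 skeletal muscle genes (median -4.16) were lower with spermidine, 0 of them called, and their part in the neural values was not tested.

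In Smox-/- mice spermidine went with higher neural transcripts, again with 0 of the 32 genes called by edgeR (0% of all genes), 16 below 0.05 before adjustment (9.33% of all genes) and 0 called by DESeq2 (0.231% of all genes). The median log2 fold change was 1.68. Every spermidine library lay above every untreated Smox-/- library in 21 of the 32 genes, against 11.6% of all genes, and below in 1, Gfra3. Elavl4 was at 10.9, 3.48 and 6.29 CPM, Snap25 at 23.1, 9.36 and 18.4 CPM, Nos1 at 44.6, 13.7 and 16.7 CPM and Sox10 at 4.42, 2.74 and 4.78 CPM in Smox-/- colon with spermidine. Replicate 1 was the highest of the 3 for Elavl4, Snap25 and Nos1, and it also held 1754 CPM of skeletal muscle genes. Its mean over the neuron genes stood 2.58 log2 units below its mean over smooth muscle genes, the smallest gap of the 30 libraries. Without that library the median was 1.33. All 13 smooth muscle genes were higher with spermidine too (median 1.06), 0 of them called, with sums of 1436 to 11178 CPM against 1673 to 4608 CPM.

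The response to spermidine was compared between genotypes by an interaction term. Here 10 of the 32 genes, all neuronal, passed with a higher response in Smox-/- than in WT mice, against 2.18% of all genes, and none passed in the other direction. They were Elavl3, Elavl4, Tubb3, Uchl1, Stmn2, Phox2a, Snap25, Syt1, Gria2 and Kcnc2, with log2 differences between 3.76 and 5.39, and none of the 5 glia genes passed. For Snap25 the difference was 3.91 ± 0.85 (SE, edgeR adjusted p = 0.0308), made up of -2.12 in WT and 1.80 in Smox-/- mice. The median over the 32 genes was 3.90. Both responses share their untreated groups with the genotype comparison above, so the 14 genes called there and the 10 called here are not separate evidence. Without WT untreated replicate 3 the count was 0 and the median 2.93, and leaving out each of the 12 libraries in turn gave 0 to 14. The libraries whose removal gave 0 were WT untreated replicate 3, Smox-/- untreated replicates 2 and 3, WT spermidine replicates 1 and 2 and Smox-/- spermidine replicates 1 and 3. Over all genes these removals left 0 to 9 called, against 569 with every library kept. With the smooth muscle covariate 6 remained (Elavl3, Elavl4, Tubb3, Stmn2, Snap25 and Gria2), against 165 over all genes.

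AOM-DSS without spermidine was followed by lower neural transcripts in WT non-tumor colon. Of the 32 genes 11 fell (8 of 27 neuron and 3 of 5 glia genes) and none rose, against 4.68% of all genes that fell, and the median log2 fold change was -2.17. Non-tumor libraries were all below untreated ones in 27 of the 32 genes, against 13.5% of all genes. Tubb3 was at 6.93, 5.48 and 5.75 CPM after AOM-DSS (5.83-fold lower, edgeR adjusted p = 0.0278), Elavl3 at 1.41, 1.06 and 1.49 CPM (5.31-fold lower, 0.0314) and Stmn2 at 8.06, 5.04 and 9.21 CPM (4.99-fold lower, 0.0360). These 3 pan-neuronal genes were joined by Phox2a at 0.89, 0.698 and 0.902 CPM and Snap25 at 8.85, 4.95 and 9.19 CPM. Among co-receptors and channels, Gfra1 was at 4.71, 1.08 and 3.14 CPM, Gfra2 at 1.57, 1.52 and 3.01 CPM and Gria2 at 0.367, 0.454 and 0.489 CPM. All of these lay below the untreated WT libraries.

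Gfap and S100b had the largest falls among the genes called. Sox10 was at 2.27, 0.593 and 0.827 CPM after AOM-DSS in WT mice (7.38-fold lower, edgeR adjusted p = 0.0376), S100b at 0.733, 0.331 and 0.564 CPM (9.57-fold lower, 0.0415) and Gfap at 4.68, 2.32 and 1.43 CPM (9.62-fold lower, 0.0495). Vip and Dbh stood apart from the other transmitter genes. Vip was at 15.9, 18.2 and 22.2 CPM after AOM-DSS, within its untreated range (log2 fold change -0.46 ± 1.13 (SE), edgeR adjusted p = 0.845), and Dbh at 2.23, 1.29 and 2.46 CPM (-0.47 ± 1.08, 0.834). Nos1, of inhibitory motor neurons like Vip, was at 13.2, 6.21 and 12.6 CPM, below all 3 untreated libraries (-2.09 ± 0.94, 0.169). Chat was at 0.454, 0.227 and 0.263 CPM and Tac1 at 18.9, 23.3 and 11.9 CPM. Gfra3 was at 1.48, 1.45 and 1.47 CPM, above all 3 untreated values of 1.27, 1.12 and 0.5 CPM, without passing (edgeR adjusted p = 0.674).

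Without WT untreated replicate 3 none of the 32 genes was called in this comparison and the median was -1.36. The count was also 0 without AOM-DSS replicate 2 or 3 and 2 without replicate 1. Over all genes 9 were called without WT untreated replicate 3, against 1260 with every library. Without AOM-DSS replicates 2, 3 and 1 they numbered 16, 481 and 1197. Smooth muscle genes summed to 574 to 3465 CPM after AOM-DSS, against 6805 to 10347 CPM untreated. All 13 were lower, with a median log2 fold change of -2.17, and 2 were called. All 12 skeletal muscle genes were lower too, with a median of -9.12, and 8 were called. With the smooth muscle covariate 0 of the 32 genes and 13 of all 19558 genes were called, with a median of -1.30 over the 32. Smooth muscle means did not overlap between these groups (4.71 to 7.19 log2 CPM after AOM-DSS, 8.07 to 8.77 untreated). That fit therefore cannot separate muscle content from treatment, and the part of muscle in the result was not tested.

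In Smox-/- mice AOM-DSS went the other way without a call. The median log2 fold change was 1.48, 0 of the 32 genes were called by edgeR (0.0767% of all genes) or DESeq2 (2.72%), and 12 had an unadjusted p under 0.05 (13% of all genes). Non-tumor libraries were all above untreated ones in 10 genes, all neuronal, against 10.1% of all genes. Ret was at 17.8, 45.5 and 21 CPM against 10.1, 16.3 and 10.5 CPM, and Vip at 18, 28.7 and 13.4 CPM against 8.68, 3.46 and 1.83 CPM. The interaction of genotype with AOM-DSS had a median of 3.75 and 0 of the 32 genes called by edgeR, as were 0% of all genes, with 28 at an unadjusted p under 0.05 (15.8% of all genes) and 21 called by DESeq2 (6.37% of all genes). Without WT untreated replicate 3 the interaction had a median of 2.86 and 0 genes called, and the count was 5, 11 and 13 without WT untreated replicate 1, WT untreated replicate 2 and Smox-/- AOM-DSS replicate 3. Over all genes these fits called 0, 203, 415 and 460, in the same order. Other markers moved in the Smox-/- comparison. All 7 squamous genes were lower after AOM-DSS (median -8.15, sums of 2.65 to 11.7 CPM against 5.61 to 2177 CPM) and the 5 hindgut position genes had a median of -4.85 (sums of 222 to 326 CPM against 243 to 499 CPM), 0 of either list called. In the interaction these medians were -5.88 and -3.84, and that of smooth muscle 2.30. Their part in the neural values was not tested.

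Spermidine on top of AOM-DSS was compared with AOM-DSS alone in non-tumor colon. In WT mice 0 of the 32 genes were called by edgeR (0% of all genes) or DESeq2 (0.241%), 7 had an unadjusted p under 0.05 (5.67% of all genes), and the median was -1.25. In 16 genes all 3 libraries with spermidine were below those without, against 5.8% of all genes. Elavl4 was at 0.31, 1.74 and 0.572 CPM against 4.15, 2.02 and 3.29 CPM, Vip at 1.27, 9.09 and 3.11 CPM against 15.9, 18.2 and 22.2 CPM, and Syt1, with the lowest adjusted p, at 0.572, 2.96 and 0.857 CPM against 7.07, 3.12 and 6.69 CPM (-1.93 ± 0.71, edgeR adjusted p = 0.850). Nefm and Gfra3 ran opposite to the others, with all 3 libraries higher, Nefm at 4.28, 5.35 and 3.9 CPM against 3.4, 2.22 and 3.33 CPM and Gfra3 at 4.1, 3.66 and 2.83 CPM against 1.48, 1.45 and 1.47 CPM. Neither was called (edgeR adjusted p = 0.924 for Nefm and 0.890 for Gfra3). In Smox-/- mice the median was -1.21, 0 genes were called by edgeR (0% of all genes) or DESeq2 (2.16%) and 5 had an unadjusted p under 0.05 (13.7% of all genes). In a fit without Smox-/- AOM-DSS with spermidine replicate 1 and WT untreated replicate 3 the median was -0.84. Tac1 had the lowest adjusted p, at 12.4, 9.19 and 14.4 CPM against 28, 34.1 and 41.3 CPM without spermidine (-1.52 ± 0.62, edgeR adjusted p = 0.296).

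AOM-DSS in mice given spermidine was also compared with spermidine alone. In WT mice the median was -1.50, 0 of the 32 genes were called by edgeR, where 1.91% of all genes were, or by DESeq2 (6.21%), and 14 had an unadjusted p under 0.05 (19.5% of all genes). All 5 glia genes and 16 neuron genes were lower in every AOM-DSS library, 21 of 32 against 19.1% of all genes, and Nefm and Gfra3 were higher in every one. Fitted on these 2 groups alone, 10 of the 32 genes were called, as were 14.6% of all genes in that fit. Smooth muscle genes were lower in 13 of 13 cases (median -1.19, 0 called, sums of 1505 to 1898 against 2808 to 5193 CPM). In Smox-/- mice the median was -1.46, edgeR called 0 of the 32 genes (0.0205% of all genes), DESeq2 called 1 (3.84% of all genes), and 13 had an unadjusted p under 0.05 (16.3% of all genes). Without Smox-/- spermidine replicate 1 the median was -1.07. In a fit without Smox-/- AOM-DSS with spermidine replicate 1 and WT untreated replicate 3 it was -1.10. Smooth muscle genes again were lower in 13 of 13 cases (median -1.36, 0 called), and the hindgut position genes had a median of -3.65. In 16 genes all AOM-DSS libraries were lower, against 9.31% of all genes, Sox10 and S100b among them. Sox10 was at 0.395, 1.34 and 1.69 CPM after AOM-DSS with spermidine against 4.42, 2.74 and 4.78 CPM, and S100b at 0.0132, 0.593 and 0.739 CPM against 2, 1.29 and 3.15 CPM.

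Genotypes were also compared under each treatment. Smox-/- minus WT had a median of 1.04 with spermidine alone, 0.92 with AOM-DSS alone and 1.09 with both. None of the 32 genes was called by edgeR in any of these 3 comparisons, where 0.0818%, 0.0665% and 0.251% of all genes were called, and DESeq2 called none (1.19%, 0.657% and 3.83% of all genes). Those with an unadjusted p under 0.05 numbered 0, 1 and 2, against 9.62%, 8.39% and 14.2% of all genes. Without Smox-/- spermidine replicate 1 the median with spermidine alone was 0.73. Without Smox-/- AOM-DSS with spermidine replicate 1 and WT untreated replicate 3 the median with both treatments was 1.43. All Smox-/- libraries were above all WT libraries in 5, 6 and 0 of the 32 genes, against 11.9%, 6.35% and 7.93% of all genes. The hindgut position genes had medians of -3.72 with AOM-DSS alone and -4.45 with both, and their part in the neural values was not tested. Nos1, Tac1 and Chat were among the genes without overlap both with spermidine and with AOM-DSS. Nos1 stood at 44.6, 13.7 and 16.7 CPM against 5.41, 6.33 and 9.89 CPM in the former case and 20.2, 51.4 and 13.2 CPM against 13.2, 6.21 and 12.6 CPM in the latter. In the latter case the nearest values were equal at the digits printed. With spermidine alone the count without overlap was close to the share of all genes.

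Other neural genes, from lists not used to pick the 32, were counted in the same fits. They share the libraries of the 32 genes, so they are not separate evidence, and they were not followed with libraries left out. Of 38 tested further neuron genes, 21 were lower in untreated Smox-/- than WT colon, 12 after AOM-DSS in WT mice, 19 lower and 1 higher in WT tumors, 23 lower in Smox-/- tumors and 18 higher in the spermidine interaction. Over all genes the shares were 3.32%, 4.68%, 17.5% lower and 16.9% higher, 13.2% and 2.18%, in the same order. Their medians in these comparisons were -2.56, -2.10, -2.37, -2.21 and 3.67. In WT tumors Chrna3, a ganglionic nicotinic receptor subunit, and Htr3b, a serotonin receptor subunit, had 0 counts in all 3 libraries. Chrna3 was at 0.163, 1.35 and 0.667 CPM in WT non-tumor colon and thus at least 15.1-fold lower, and Htr3b at 0.0327, 0.172 and 0.159 CPM (at least 2.52-fold lower). With the 5 genes at 0 counts placed at their bounds, the WT tumor median of these 38 genes was -1.75. A bound lies above 0 where the non-tumor mean is itself under the floor of 0.0481 CPM. Calb1 and Nxph2 had such means (0.0313 and 0.0156 CPM). A bound of this kind shows no rise and can pull the median up. Elavl2, the 1 gene that rose, was at 0.294, 0.235 and 0.159 CPM against 0.904, 0.556 and 1.57 CPM (log2 fold change 2.11 ± 0.67 (SE), edgeR adjusted p = 0.0191).

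In untreated colon the largest differences among those neuron genes were Grp, gastrin-releasing peptide, at 10.6, 9.28 and 52.4 CPM in WT mice against 2.04, 0.528 and 1.16 CPM in Smox-/- mice, Nmu, neuromedin U, at 5.7, 5.15 and 26.2 CPM against 1.01, 0.511 and 0.669 CPM, and Ina, a neuronal filament, at 3.98, 3.74 and 12.4 CPM against 1.35, 0.409 and 0.592 CPM. After AOM-DSS in WT mice they were Pcp4, a calmodulin regulator, at 1.22, 0.279 and 0.564 CPM against 20.7, 26.9 and 37.1 CPM untreated (log2 fold change -5.35 ± 0.97 (SE), edgeR adjusted p = 0.0122), Grp at 1.48, 0.68 and 1.49 CPM and Nmu at 0.733, 0.541 and 1.77 CPM. For Pcp4, WT untreated replicate 3 stood less apart than for the others, since replicates 1 and 2 were also high. In Smox-/- tumors genes with large falls included Chrna3 (-4.08 ± 1.23) and Kcna1, with 3 counts left in the tumors. Of the 60 tumor counts of Chrna3, 59 lay in replicate 3. Grp and Pcp4 also fell in WT mice given AOM-DSS with spermidine against spermidine alone (-4.20 ± 1.03 and -3.78 ± 0.91), the 2 further neuron genes called there, where 1.91% of all genes were called.

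Of 10 further glia genes, 4 were lower in untreated Smox-/- colon (3.32% of all genes), among them Foxd3, a neural crest factor, and Scn7a, a sodium channel of glia. Foxd3 was at 2.39, 2.54 and 6.56 CPM in WT mice against 0.832, 0.204 and 0.399 CPM in Smox-/- mice. After AOM-DSS in WT mice 3 fell (4.68% of all genes), Foxd3 and Kcnj10 among them. In Smox-/- tumors 6 fell (13.2% of all genes), led by Foxd3 (-3.67 ± 0.91), Cdh19 (-3.53 ± 1.15) and Scn7a (-2.95 ± 0.72). WT tumors were mixed, with 5 lower and 2 higher (17.5% and 16.9% of all genes). Cdh19, a cadherin of glia and Schwann cells, had 0 counts in WT tumors from 0.408, 0.454 and 0.54 CPM (at least 9.7-fold lower), while Sox2, a factor of glia that epithelium can also make, rose from 0.049, 0.0313 and 0.0952 CPM to 1.36, 1.01 and 0.506 CPM (4.09 ± 1.15, edgeR adjusted p = 0.00955). In the spermidine interaction 3 were higher (2.18% of all genes), Scn7a and Kcnj10 among them.

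Ligands of the neural receptors were followed as well, 9 genes in all. In WT tumors 3 rose and 1 fell (16.9% and 17.5% of all genes). Bdnf, a neurotrophin, rose from 0.049, 0.0782 and 0.0952 CPM to 0.0658, 0.687 and 0.66 CPM (log2 fold change 2.67 ± 1.03 (SE), edgeR adjusted p = 0.0487), and Nrtn, neurturin, from 2.17, 1.6 and 2.25 to 9.91, 5.55 and 7.83 CPM (1.95 ± 0.56, 0.0113). Ntf3, neurotrophin 3, had 4 counts in WT tumors and fell from 0.604, 0.469 and 0.127 CPM (-4.13 ± 0.89, edgeR adjusted p = 0.00174). In Smox-/- tumors 3 fell (13.2% of all genes), Ntf3 (-4.32 ± 0.87), Gdnf (-2.36 ± 0.59) and Ece1, the enzyme that activates endothelins (-0.68 ± 0.18), and none rose. Gdnf, the ligand of Gfra1 and Ret, also fell after AOM-DSS in WT mice, from 0.761, 1.68 and 2.14 CPM to 0.646, 0.244 and 0.282 CPM (-1.96 ± 0.57, edgeR adjusted p = 0.0448). Edn3, the ligand of Ednrb, fell in WT mice given AOM-DSS with spermidine against spermidine alone, from 4.63, 13.1 and 19.8 CPM to 1.91, 1.83 and 1.08 CPM (-2.95 ± 0.70, edgeR adjusted p = 0.0336).

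Set beside smooth muscle, the layer that holds the myenteric plexus, the neuron genes are shown against its level in the plot of both means. Tumors other than Smox-/- tumor replicate 3 had the lowest values of both. The difference between the means was -2.58 log2 units in Smox-/- spermidine replicate 1 and -6.65 in WT AOM-DSS with spermidine replicate 1, the ends of its range. WT AOM-DSS libraries had -5.18, -3.18 and -4.30, overlapping the -5.78 to -3.77 of untreated WT libraries. Within the Smox-/- spermidine group replicate 1 had the lowest smooth muscle mean (5.89) but the highest neuron mean (3.31). The points share library depth and scaling, so this is a description, and it does not say which tissue layers a sample held.

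**Figure D5:**
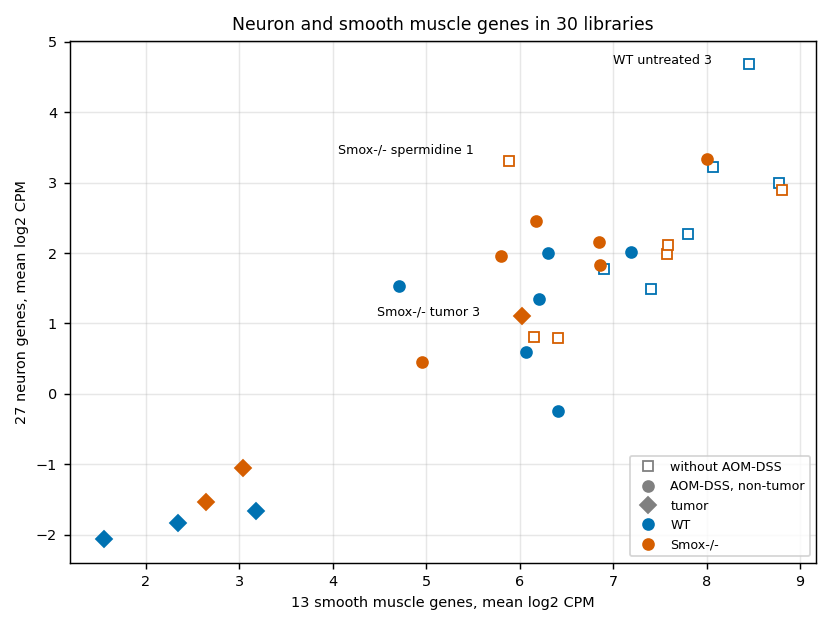
Mean log2 CPM of 27 neuron genes (y axis) against that of 13 smooth muscle genes (x axis) in 30 libraries, coloured by genotype, with open squares for libraries without AOM-DSS, circles for non-tumor colon after AOM-DSS and diamonds for tumors. The 5 tumors at lower left lie below -1.0 on the y axis, and Smox-/- tumor replicate 3 lies at 1.11 among the non-tumor libraries.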

How the data were processed

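RNA was made into directional libraries and sequenced from 30 mouse colon samples, 3 in each of 10 groups. The deposited table holds estimated counts per gene as whole numbers, and the submitters' processing notes name fastp, Salmon, DESeq2 and GRCm38, with versions and the strand setting not given in the sources used here. From these counts, edgeR 4.0.16 in R 4.3.3 fitted 1 mean per group over all 30 libraries (TMM scaling, robust quasi-likelihood, 20 residual degrees of freedom). Genes needed a count of at least 10 by the tool's filter, which left 19558 of 31023, and Benjamini-Hochberg adjustment ran across that whole set, with a threshold of 0.05. In all, 15 pairwise comparisons and 2 interactions were fitted. Log2 CPM used a prior count of 2, and CPM per kb used exon lengths from the GENCODE vM21 annotation of GRCm38. Counting intervals are 95% exact intervals, and the floor was 3 counts per library. Both cover counting error only.

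The 32 genes and the other lists were chosen with earlier results of these data known. Members called in any pairwise comparison and a fixed set of markers are named with values per library, and from the other lists up to 3 called genes with the largest change in a comparison. A few genes of those lists are counted but not reported here by name. Replicates were numbered in accession order, and the labels do not say that they are separate animals, so p-values measure the spread between these samples, which may be technical. No replicate pair within a group agreed within sampling noise. Alternatives were DESeq2 1.42.0, RLE scaling, other filters, only the groups compared, a smooth muscle covariate and leaving out libraries.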

Additional observations from a re-analysis of the deposited data

Results flagged for a closer look

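The response to spermidine differed between genotypes, by an interaction term over 4 groups of 3 libraries, for 10 of the 32 genes. On the log2 scale the Smox-/- response minus the WT response was 4.21 for Elavl3 (edgeR adjusted p = 0.0288), 3.92 for Phox2a (0.0323), 3.91 for Snap25 (0.0308), 3.88 for Stmn2 (0.0319) and 4.74 for Elavl4 (0.0319). It was 3.76 for Uchl1 (edgeR adjusted p = 0.0367), 5.14 for Gria2 (0.0314), 5.39 for Kcnc2 (0.034), 4.10 for Syt1 (0.034) and 3.95 for Tubb3 (0.0309). All 10 have a negative fitted response in WT and a positive one in Smox-/- mice. Leaving out WT untreated replicate 3, the library with skeletal muscle transcripts, left 0 of them called. Over all genes it left 9 called, against 569 with every library, and the cause was not tested.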

How the results depend on the processing

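No fitted direction of a called gene was reversed under any alternative. Of the called genes named, followed over all alternatives, 240 values for WT tumors were on the same side of the threshold and 55 were not, against 188 and 111 for Smox-/- tumors, 94 and 88 for the untreated genotypes, 59 and 84 for AOM-DSS in WT mice and 99 and 91 for the spermidine interaction. The number of the 32 genes called fell to 0 with the smooth muscle covariate for the untreated genotypes, AOM-DSS in WT mice and both tumor comparisons, and to 6 for the spermidine interaction. Over all genes that covariate left 15, 13, 0 (WT tumors), 35 (Smox-/- tumors) and 165 called, in the same order. Smooth muscle level itself differed between the groups of these pairwise comparisons, so the loss of calls cannot separate muscle content from group. DESeq2 called 24 for the untreated genotypes (13.8% of all genes), 11 for spermidine in WT mice (4.64%), 18 for AOM-DSS in WT mice (14.2%), 1 for AOM-DSS with spermidine against spermidine in Smox-/- mice (3.84%), 6 between tumors (0.76%), 24 for the spermidine interaction (9.26%) and 21 for the AOM-DSS interaction (6.37%). Fits on only the groups compared gave 0 for the untreated genotypes (0.00564% of all genes), 0 for AOM-DSS in WT mice (0%), 10 for AOM-DSS with spermidine against spermidine in WT mice (14.6%), 7 for Smox-/- tumors (17.9%) and 18 for the spermidine interaction (3.33%). Without a filter the count was 2 for AOM-DSS in WT mice (578 over all genes), and with a filter of 1 CPM in 3 libraries it was 2 for the AOM-DSS interaction (75 over all genes). Without both WT untreated replicate 3 and Smox-/- AOM-DSS with spermidine replicate 1 it was 0 for the untreated genotypes, AOM-DSS in WT mice and the spermidine interaction and 1 for AOM-DSS with spermidine against spermidine in WT mice. Over all genes these counts were 32, 57, 10 and 1423. Leaving out 1 library at a time gave 0 to 17 for the untreated genotypes, 0 to 15 for AOM-DSS in WT mice, 2 to 26 for Smox-/- tumors, 16 to 23 for WT tumors, 0 to 1 between tumors, 0 to 14 for the spermidine interaction and 0 to 13 for the AOM-DSS interaction. Over all genes the first of these ranges were 6 to 1351, 9 to 1941, 990 to 6117 and 4404 to 6242. Between tumors it was 6 to 15, and for the interactions 0 to 859 and 0 to 460. Where the construction of an alternative does not show it, the cause was not tested. No paired analysis was possible because the labels give no replicate numbers or animals shared between groups. Genes with a few counts in tumors have wide counting intervals, which limits their fold changes.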
